A study of Mus musculus with 2 samples.

Results

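The heat shock proteins and their cochaperones form the cell's protein folding machinery, and 41 such genes were examined in mouse bone marrow. They were chosen by name: the cytosolic and mitochondrial Hsp70, Hsp90, Hsp60 and J proteins, the subunits of the chaperonin CCT, and the cochaperones. A probe annotated with the gene's symbol was found for 39 of them, by 74 of the 45281 probes of the array. Hsp90ab1, the constitutive cytosolic Hsp90, and Hsf1, the transcription factor of the heat shock response, had no probe of that name in the annotation used and were not analysed here. The RNA was total RNA of femoral bone marrow from 8-day-old mice, with 1 Illumina MouseWG-6 v2.0 bead array of Dnmt2-/- marrow and 1 of wild type marrow. The labels give no strain, sex, allele or number of animals for either array. Dnmt2 (gene symbol Trdmt1) adds methyl groups to cytosines of certain transfer RNAs, and the title of the study names aberrant blood formation in its mutants.

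Hsp70 proteins bind unfolded stretches of other proteins and release them in a cycle driven by ATP. J proteins bring substrates to Hsp70 and start that cycle, Hsp110 proteins and BAG proteins let the nucleotide go, and the adaptor Hop, encoded by Stip1, hands substrates on to Hsp90. The chaperonin CCT is a closed ring of different subunits that folds actin and tubulin, and Hsp60 with its lid Hsp10 does related work in the mitochondrial matrix. When unfolded proteins accumulate, the factor HSF1 binds heat shock elements, which are inverted repeats of the letters GAA, and induces many of these genes. In red cell precursors, Hsp70 is known to protect the transcription factor GATA1 from cleavage.

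With 1 array per genotype no difference has a replicate, a test or an error, so all values describe these arrays and not the genotypes, and the number of arrays limits the precision. Differences are log2 ratios of the Dnmt2-/- array over the wild type array, from background-corrected and quantile normalized intensities of each gene's brightest probe, and a gene is called detected at a detection p-value below 0.01. The fitted background was 94.9 (SD 3.43) on the Dnmt2-/- array and 90.9 (SD 3.16) on the wild type array, and the median signal was 100.2 and 95.1. A deposited signal that is slightly higher on the Dnmt2-/- array can therefore go with a negative ratio. Dnmt2 did not settle the labels: its 4 probes gave ratios of -0.27 to 0.91 with signals of 107.6 to 148.8 on the Dnmt2-/- array and 84.1 to 112.4 on the wild type array, and the labels do not place them relative to the deletion. Xist, the RNA of the inactive X chromosome, had a signal of 92.8 on the Dnmt2-/- array and 822.7 on the wild type array, and Y-linked Eif2s3y had 466.8 and 89.8, so the arrays also differed in sex-linked RNA. Genotype and sex-linked RNA cannot be told apart in any difference below.

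The named marrow cells were present on both arrays. All 5 erythroid, 7 neutrophil and 3 B cell markers with a probe were detected on each, with median log2 ratios of 0.08, -0.12 and 0.04. Markers of neighbouring tissues were higher on the Dnmt2-/- array: the summed signal of 11 skeletal muscle markers was 17918 on the Dnmt2-/- array and 9474 on the wild type array, that of 11 cartilage markers 3279 and 1498, of 8 osteoblast and bone markers 20751 and 15514, and of 7 osteoclast markers 14590 and 7440. Their median ratios over genes detected on both arrays were 0.84 (11 of 11 above 0, led by Mb, Tcap and Mylpf), 1.48 (7 of 7, led by Col2a1, Comp and Col10a1), 0.67 (6 of 7, led by Ibsp, Panx3 and Col1a2) and 1.04 (4 of 4, led by Dcstamp, Ctsk and Oscar). Ctsk made up most of both osteoclast sums, with 13500 on the Dnmt2-/- array and 6683 on the wild type array. Bglap, the brightest bone marker, had 7885 on the Dnmt2-/- array and 8734 on the wild type array and was level at -0.05. The cartilage marker Matn3, the bone marker Dmp1 and the osteoclast markers Atp6v0d2 and Calcr were detected on neither array. The macrophage markers went the other way, with a median of -0.70, 5 of 5 below 0, led by Adgre1 and C1qc. Their summed signal was 4715 on the Dnmt2-/- array and 5341 on the wild type array. Of the 5, Vcam1 was level at -0.004. Its signals of 2533 on the Dnmt2-/- array and 2460 on the wild type array were the largest part of both sums. The part of these cells in the chaperone values was not tested, and in bulk RNA fewer cells of a type and less RNA per cell cannot be told apart.

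Promoter sequence shows which members carry the exact letters of heat shock elements. A few stretches are given because the members that hold these letters ended on different sides of the comparison. Windows of 250 bases before to 50 bases after an annotated start, from RefSeq on GRCm38.p6, were available for 32 of the 41 genes. The paired forms GAANNTTC and TTCNNGAA, each its own reverse complement, were found in 14 of these 32 genes, or 43.8%, against 17.0% of all 27025 genes with a window. A longer form, in which a further unit follows the paired form after 2 more bases and which therefore overlaps it, was searched on both strands and found in 5 of the 32, or 15.6%, against 0.662% of all genes. These 5 were Chordc1, Dnajb6, Hspd1, Hspe1 and Hsph1. Dnajb1 had a window, but none of these forms was found in it. Only exact letters were searched, so a window without a match is not shown to lack an element. In the stretches below, written 5′ to 3′ along the gene's strand, capitals mark the matched letters of the paired forms. They lie at chr1:55088028-55088147, plus strand (Hspe1), chr5:29735778-29735897, plus strand (Dnajb6), chr9:18292177-18292296, plus strand (Chordc1) and chr5:149636286-149636405, minus strand (Hsph1). The first 2 end just before the annotated start, and those of Chordc1 and Hsph1 run from 90 bases before it to 30 bases into the transcript.
Hspe1: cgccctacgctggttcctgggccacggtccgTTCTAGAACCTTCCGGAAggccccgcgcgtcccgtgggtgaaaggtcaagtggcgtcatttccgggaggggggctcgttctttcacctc
Dnajb6: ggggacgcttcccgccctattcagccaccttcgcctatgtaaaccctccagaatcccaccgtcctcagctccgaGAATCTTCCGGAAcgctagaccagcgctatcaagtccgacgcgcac
Chordc1: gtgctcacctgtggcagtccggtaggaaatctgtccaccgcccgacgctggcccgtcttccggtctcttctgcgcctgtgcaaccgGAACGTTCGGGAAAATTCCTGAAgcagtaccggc
Hsph1: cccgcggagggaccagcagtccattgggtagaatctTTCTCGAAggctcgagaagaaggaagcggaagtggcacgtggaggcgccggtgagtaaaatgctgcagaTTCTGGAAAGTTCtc
Hspe1 and Hspd1 are neighbours that face apart. Of the 300 bases of their windows, 285 are the same stretch read from opposite strands, so that both carry the same matches. Unlike Hsph1, which is also stress-inducible, Hspa1a, Hspa1b and Hspb1 held only the paired forms. Their stretches lie at chr17:34972157-34972276, minus strand (Hspa1a), chr17:34959239-34959358, minus strand (Hspa1b) and chr5:135887799-135887918, plus strand (Hspb1), each the 120 bases before the start.
Hspa1a: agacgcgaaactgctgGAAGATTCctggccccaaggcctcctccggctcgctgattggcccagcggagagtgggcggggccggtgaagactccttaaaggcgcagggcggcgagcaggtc
Hspa1b: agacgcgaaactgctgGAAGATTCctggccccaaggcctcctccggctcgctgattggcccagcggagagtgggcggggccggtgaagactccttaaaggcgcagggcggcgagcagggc
Hspb1: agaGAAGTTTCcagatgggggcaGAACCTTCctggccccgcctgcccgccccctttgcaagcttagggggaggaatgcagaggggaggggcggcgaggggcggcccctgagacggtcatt
The stretches of Hspa1a and Hspa1b, neighbouring genes for the same inducible Hsp70, were identical at 119 of 120 bases. A match is a description of letters and not a bound site.

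**Figure D1:**
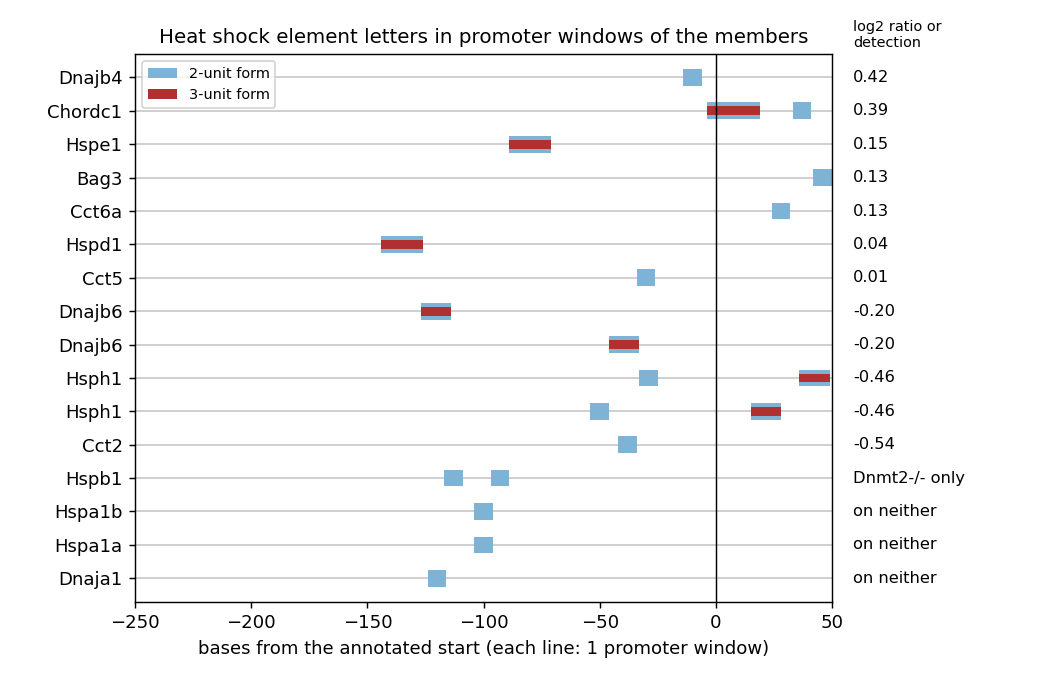
Positions of the heat shock element letters in the promoter windows of the 14 members that hold them, in bases from the annotated start (x axis), with 1 line for each window. Blue bars are the 2-unit forms and red bars the 3-unit forms, and the right margin gives the log2 ratio of the Dnmt2-/- array over the wild type array, from 0.42 for Dnajb4 to -0.54 for Cct2, or where the gene was detected.

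The chaperone genes as a group were nearly level between the arrays. Of the 39 measured members, 33 were detected on both arrays, 2 on the Dnmt2-/- array only and 4 on neither. The median log2 ratio of the 33 was 0.01, beside -0.02 over all 9746 genes detected on both arrays, with 17 members above 0 and 16 below. With median scaling the median of all genes was 0.14 and that of the members 0.09, and 12 of 33 members lay above that of all genes. No member was at least 1.5-fold higher on the Dnmt2-/- array (0 of 33, where 6.61% of all genes were), and 3 of 33 were at least 1.5-fold lower (where 5.16% of all genes were): Hspa4l, Ptges3 and St13. In either direction 11.8% of all genes passed this fold, and 1.62% passed 2-fold, which 0 of 33 members did. Among the members, 24 of 33 (72.7%) lay within 0.3 of 0, and 61.6% of all genes did. Of the members, 25 lay at or above the median level of the genes detected on both arrays, and 1 of these 25 passed 1.5-fold, where 8.50% of 4873 such genes did. Of the 8 members below that level 2 passed, where 15.0% did. The 3 lower calls were lost without background correction, with a larger offset and in the authors' processed values, and with median scaling the calls were Hspa4l lower and Dnajb4 higher.

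**Figure D2:**
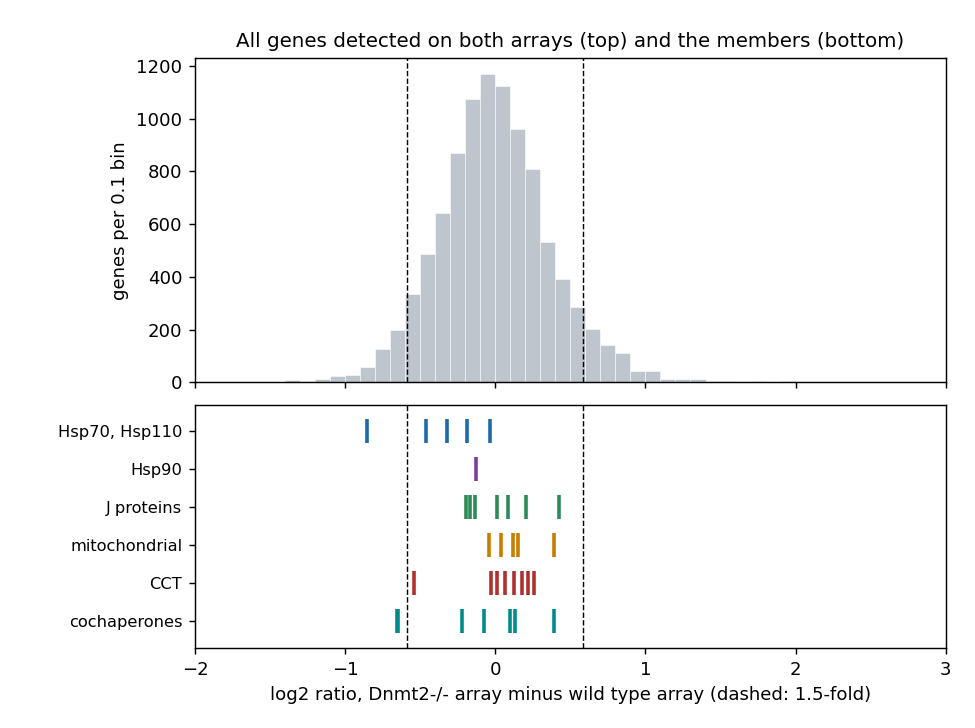
Upper panel, number of genes per 0.1 of log2 ratio (Dnmt2-/- array minus wild type array) over the 9746 genes detected on both arrays. Lower panel, the 33 members by role, 1 tick each, on the same axis, with the mitochondrial Hspa9 and Dnaja3 drawn with their compartment. Dashed lines mark 1.5-fold: 3 ticks lie left of the lower line and none right of the upper one.

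The inducible Hsp70 genes, the most responsive targets of HSF1, were at background on both arrays. Hspa1a had signals of 91.9 on the Dnmt2-/- array and 87.6 on the wild type array in its brightest probe, and none of its 3 probes was detected on either. Hspa1b had 96.6 on the Dnmt2-/- array and 94.3 on the wild type array, and neither of its 2 probes was detected. Because these genes are nearly identical, their probes may not tell them apart. Hspb1, the small heat shock protein Hsp27, which holds unfolded proteins without ATP, had 109.3 on the Dnmt2-/- array and 99.8 on the wild type array, and was detected on the Dnmt2-/- array only. Its ratio was 0.16 and ran from 0.04 to 0.22 over the settings, so no difference in level is read from it. Hspa1a, Hspa1b and Hspb1 thus had signals close to the fitted background on both arrays. Other members known as heat shock targets were well expressed on both arrays. Dnajb1, the main cytosolic J protein induced by heat, had 2540 on the Dnmt2-/- array and 2128 on the wild type array, a ratio of 0.20. Hsph1, the inducible Hsp110, had 415.5 on the Dnmt2-/- array and 460.3 on the wild type array, a ratio of -0.46. Bag3, a nucleotide exchange factor that works with small heat shock proteins, had 560.2 on the Dnmt2-/- array and 441.8 on the wild type array, a ratio of 0.13. Dnajb1 and Bag3 thus lay slightly above 0 and Hsph1 below it. Each kept its sign over 8 settings of scaling, background and probe choice. Each has 1 probe, however, so the settings of probe choice could not change its value.

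The Hsp70 and Hsp110 genes detected on both arrays lay mostly below 0. Over these 6 members, the inducible Hsph1 and mitochondrial Hspa9 included, the median was -0.25, with 5 below 0. Hspa8, which encodes the constitutive Hsc70, gave a signal of 6886 on the Dnmt2-/- array and 7912 on the wild type array, a ratio of -0.19. Its other probes gave -0.08 and 0.29, so the probes of Hspa8 did not share a direction. Hspa4, a relative of Hsp110, had 146.8 on the Dnmt2-/- array and 142.7 on the wild type array, and its ratio after background correction was -0.32. Hspa2, known for its part in sperm formation, had 344.2 on the Dnmt2-/- array and 298.8 on the wild type array, a ratio of -0.03, which ran from -0.25 to 0.18 over the settings. Hspa4l had the lowest ratio of all members. Its brightest probe, ILMN_1240779, had 121.0 on the Dnmt2-/- array and 137.5 on the wild type array, a ratio of -0.86 (1.81-fold lower). Another probe of Hspa4l was detected on the Dnmt2-/- array only, with 102.2 against 85.1, and ran the other way at 0.40. The remaining probe was detected on neither array, with a ratio of 0.05. Both are annotated to the RefSeq transcript, and the brightest probe to another sequence record. The Hspa4l value therefore rests on a dim probe not annotated to the RefSeq transcript, and it ran from -0.86 to -0.14 over the settings. Hspa14, which acts at the ribosome, was detected on neither array, with 88.3 on the Dnmt2-/- array and 83.0 on the wild type array. Hspa13, a microsomal Hsp70 relative, was detected on the Dnmt2-/- array only, by 1 of 5 probes, with 106.0 there and 88.9 on the wild type array. The lower bound of its fold was 1.23 for that probe, while its ratio ran from 0.53 to 0.02 over the settings, lowest with the mean of all 5 probes, and its 4 undetected probes had ratios of -0.18 to -0.02.

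**Figure D3:**
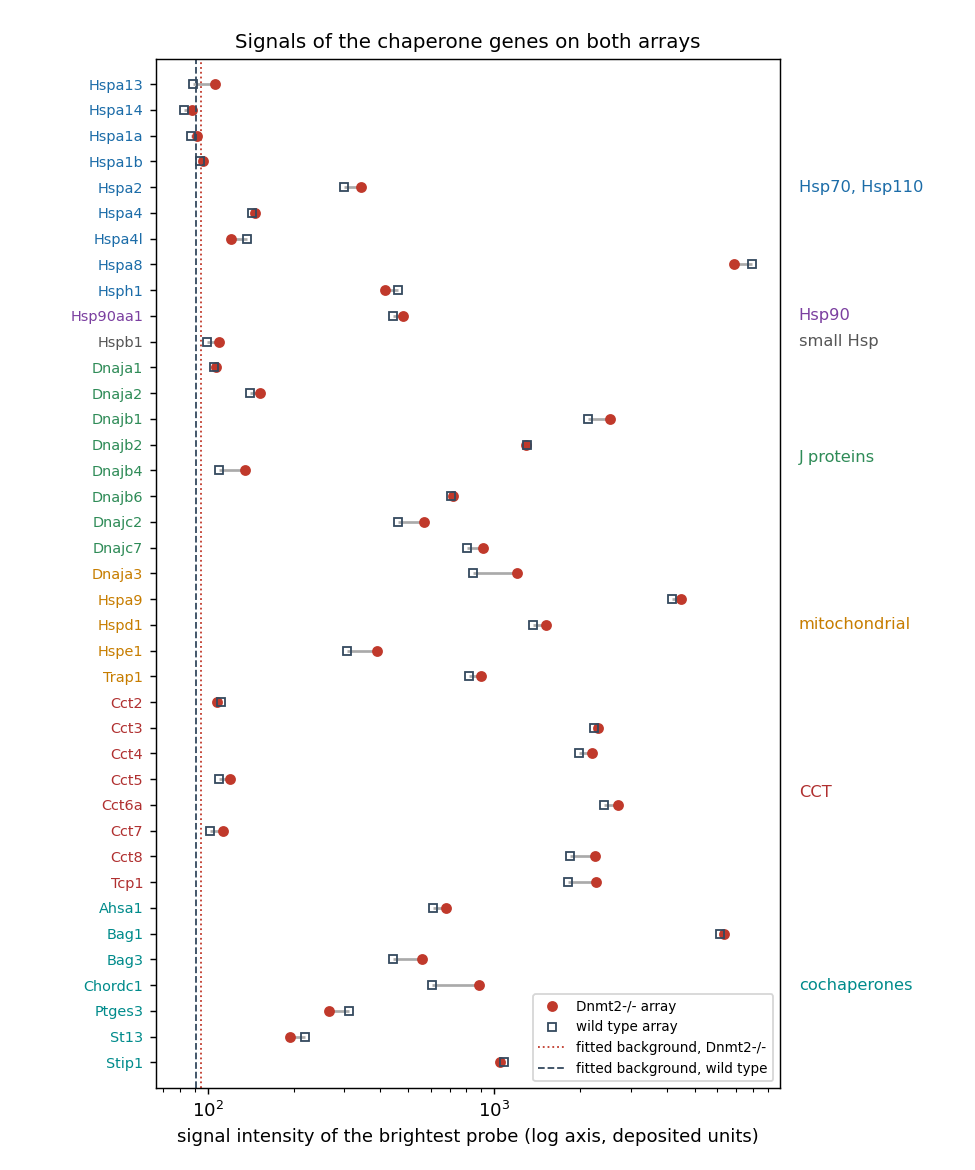
Deposited signal intensity of each member's brightest probe on a log axis, filled circles for the Dnmt2-/- array and open squares for the wild type array, with vertical lines at the fitted background of each array (94.9 and 90.9). Members are grouped by role, and Hspa1a, Hspa1b, Hspa13, Hspa14, Hspb1 and Dnaja1 lie close to the background on both arrays; levels of different probes cannot be compared with each other.

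The stress-inducible Hsp90 gene Hsp90aa1 was close to level. Its brightest probe had 480.9 on the Dnmt2-/- array and 441.8 on the wild type array, a ratio of -0.13. A second probe had 123.7 on the Dnmt2-/- array and 104.7 on the wild type array, a ratio of 0.38, and the third was detected on the Dnmt2-/- array only. Over the settings Hsp90aa1 ran from -0.13 to 0.26, so no direction is given for it.

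The cochaperones that meet Hsp90 and Hsp70 held the widest spread of the member groups. Their SD of 0.40 was near the 0.38 of all genes detected on both arrays. Ptges3, which encodes the Hsp90 cochaperone p23, had 264.4 on the Dnmt2-/- array and 311.4 on the wild type array, a ratio of -0.66 (1.58-fold lower). St13, which encodes the Hsp70-interacting protein Hip, had 193.7 on the Dnmt2-/- array and 218.5 on the wild type array, a ratio of -0.65 (1.57-fold lower). Both were below 0 in each of 8 settings, from -0.66 to -0.42 for Ptges3 and from -0.65 to -0.39 for St13. Both have 1 probe, so the settings of probe choice repeat the reported value. Stip1, the Hop adaptor between Hsp70 and Hsp90, was also slightly lower, with 1049 on the Dnmt2-/- array and 1083 on the wild type array, a ratio of -0.22. Ahsa1, which stimulates the Hsp90 ATPase, had 677.1 on the Dnmt2-/- array and 613.2 on the wild type array, a ratio of -0.08. Against these, Chordc1, an Hsp90-binding protein also called morgana, had 888.1 on the Dnmt2-/- array and 608.9 on the wild type array, a ratio of 0.39 (1.31-fold higher). Chordc1 was above 0 in each of 8 settings, from 0.34 to 0.53, but it too has 1 probe, which probe choice cannot change. Its promoter holds the overlapping element letters printed above. Bag1, a nucleotide exchange factor of Hsp70, had 6362 on the Dnmt2-/- array and 6117 on the wild type array, a ratio of 0.10, and turned to -0.01 with median scaling. The median of the 7 cochaperones was -0.08, with 3 above 0 and 4 below.

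J proteins were nearly level too, with a median of 0.05 over 8 detected members and ratios from -0.20 to 0.42. The 8 include the mitochondrial Dnaja3, which is also counted with the mitochondrial chaperones below. Dnajb4, a cytosolic J protein related to Dnajb1, had the highest ratio of all members, with 134.5 on the Dnmt2-/- array and 109.6 on the wild type array, a ratio of 0.42 (1.34-fold higher). It was dim, and ran from 0.15 to 0.61 over the settings. Dnajb6, which suppresses the aggregation of polyglutamine proteins, had 718.7 on the Dnmt2-/- array and 705.9 on the wild type array in its brightest probe, a ratio of -0.20. Probes annotated to other Dnajb6 transcripts gave -0.01 and 0.29, so its transcripts or probes did not share a direction. Dnajb2, Dnaja2, Dnajc2 and Dnajc7 had ratios of -0.13, -0.17, 0.09 and 0.01. Dnajb2 had 1296 on the Dnmt2-/- array and 1299 on the wild type array. Dnajc2, a J protein of the ribosome-associated complex, had 566.9 on the Dnmt2-/- array and 459.8 on the wild type array, and its second detected probe also gave 0.09. Dnaja1, a partner of Hsc70, was detected on neither array, with 106.6 on the Dnmt2-/- array and 105.2 on the wild type array.

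Mitochondrial chaperones lay slightly above 0, with a median of 0.12 over 5 members, 4 of them above 0; with median scaling, where the median of all genes moved to 0.14, 2 of 5 lay above that median. Hspd1, which encodes Hsp60, had 1521 on the Dnmt2-/- array and 1364 on the wild type array, a ratio of 0.04. Hspe1, which encodes its lid Hsp10, had 390.4 on the Dnmt2-/- array and 306.8 on the wild type array, a ratio of 0.15. The pair that shares a promoter thus differed by little from each other and from 0. Hspa9, the mitochondrial Hsp70 mortalin, had 4483 on the Dnmt2-/- array and 4179 on the wild type array, a ratio of 0.12, and its second probe gave 0.27. Trap1, the mitochondrial Hsp90, had 898.3 on the Dnmt2-/- array and 815.8 on the wild type array, a ratio of -0.04. Dnaja3, the mitochondrial J protein, had 1203 on the Dnmt2-/- array and 843.1 on the wild type array, a ratio of 0.39, but its other detected probe, with 118.5 and 118.7, gave -0.39. The mean of all 3 probes of Dnaja3 was -0.04, so its ratio depends on the probe.

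The subunits of CCT, which are assembled into the same ring, ran from -0.54 to 0.26. Their median was 0.10, all 8 were detected on both arrays, and 6 were above 0 and none past 1.5-fold. Tcp1, the founding subunit, had 2264 on the Dnmt2-/- array and 1808 on the wild type array, a ratio of 0.26, with -0.21 in a dimmer probe. Cct8 had 2247 on the Dnmt2-/- array and 1838 on the wild type array, a ratio of 0.22. Cct6a had 2713 on the Dnmt2-/- array and 2426 on the wild type array, a ratio of 0.13, with 0.30 in its other probe. These were the higher subunits among those with signals far above background. Cct4 had 2202 on the Dnmt2-/- array and 1981 on the wild type array, a ratio of 0.07. Cct3 had 2297 on the Dnmt2-/- array and 2227 on the wild type array, a ratio of -0.03, with 0.17 in another probe. The 5 bright subunits thus lay within -0.03 to 0.26. The remaining 3 were near background: Cct5 had 119.8 on the Dnmt2-/- array and 109.6 on the wild type array (ratio 0.01), Cct7 112.8 and 101.7 (0.18), and Cct2 107.8 and 111.8 (-0.54). Cct2 was the subunit with a ratio clearly below those of the other 7, and it ran from -0.54 to -0.16 over the settings. With median scaling 4 of 8 subunits lay above the median of all genes.

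**Figure D4:**
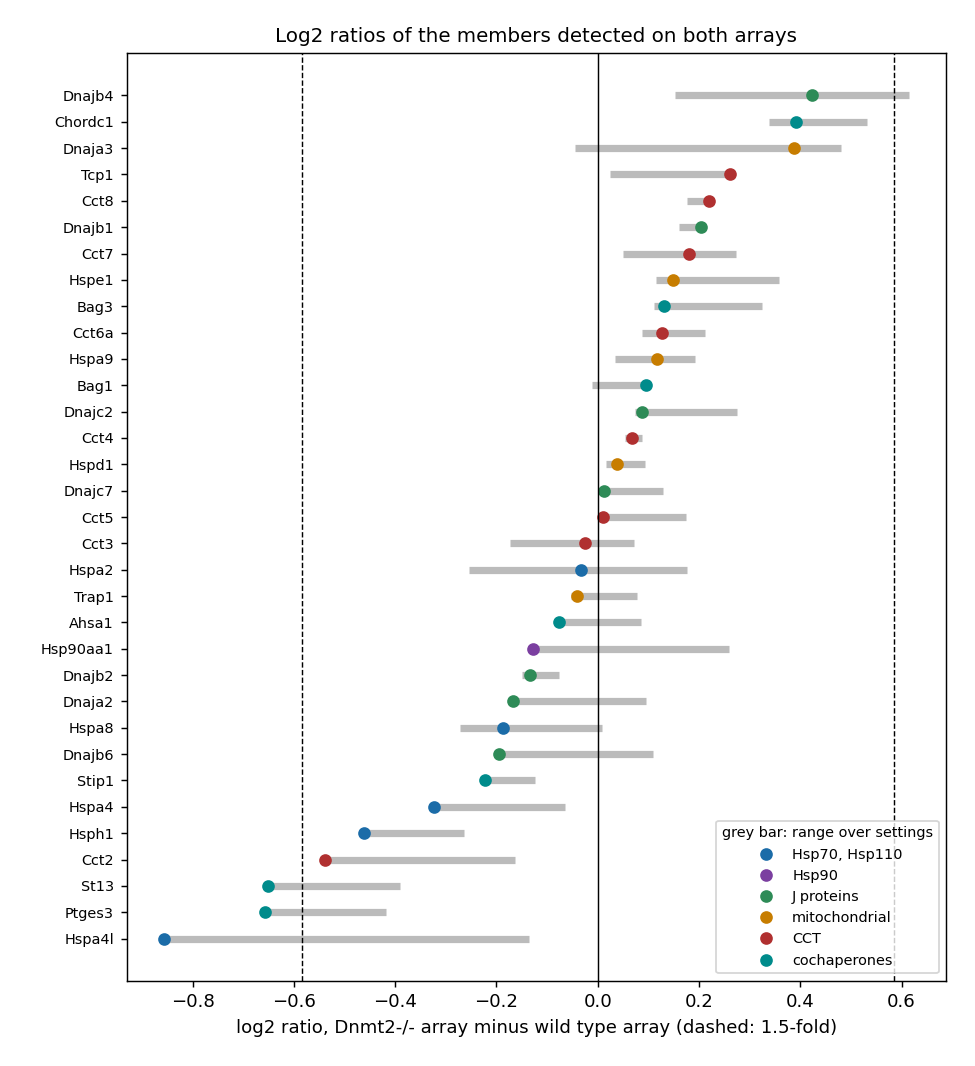
Log2 ratios of the 33 members detected on both arrays, Dnmt2-/- array minus wild type array, ordered from Dnajb4 (0.42) to Hspa4l (-0.86) and coloured by role. Grey bars give the range of each ratio over 8 settings of background, scaling and probe choice, and dashed lines mark 1.5-fold; the bars of Ptges3, St13 and Hspa4l stay below 0 but reach inside the line.

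Different probes of a gene show how far a ratio can be read. Across 3375 genes with several probes detected on both arrays, probes of the same gene had an SD of 0.29 on the log2 scale, which is agreement within these arrays and not between animals. Of the 11 members with several such probes, 6 had probes on both sides of 0, namely Hspa8, Hsp90aa1, Dnaja3, Dnajb6, Cct3 and Tcp1. The gap between the lowest and highest probe ran from 0.0015 for Dnajc2 to 0.78 for Dnaja3. Of the 33 members, the ratios of Hspa4l, Ptges3, St13, Cct2, Hsph1, Dnajb4, Chordc1, Dnaja3 and Hspa4 exceeded 0.3 in size, and Dnaja3 is the only one of these with a further probe detected on both arrays.

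**Figure D5:**
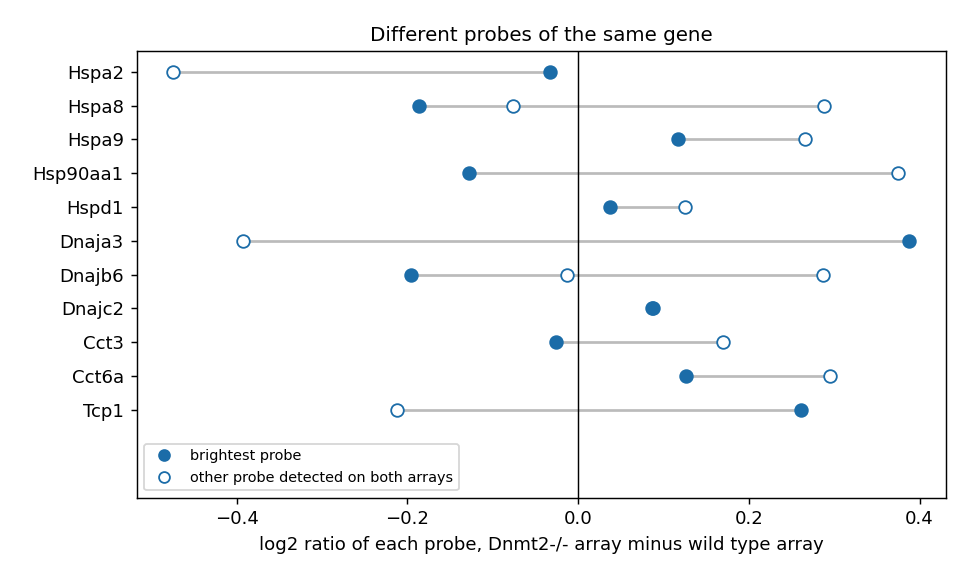
Log2 ratio of each probe, Dnmt2-/- array minus wild type array, for the 11 members with several probes detected on both arrays. Filled circles are the brightest probe and open circles the others; in 6 of the 11 genes the probes lie on both sides of 0.

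Members with and without heat shock element letters had medians close to each other. Among members with a promoter window and detected on both arrays, the 10 with a paired form had a median ratio of 0.08 (7 above 0, 3 below) and the 17 without had -0.03 (7 above, 10 below). The 5 with a longer form ran from -0.46 for Hsph1 to 0.39 for Chordc1, with a median of 0.04, and the 22 without had a median of -0.01. No test was made of these values, and the windows hold only part of each gene's regulatory sequence.

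Other genes of protein folding were also close to level at the median. A list of 99 further chaperone genes, among them small heat shock proteins, J proteins, prefoldin and tubulin cofactors, had a named probe for 92, and 67 were detected on both arrays. Their median ratio was -0.04, with 7 of 67 at least 1.5-fold higher (6.61% of all genes) and 3 of 67 at least 1.5-fold lower (5.16%). Higher on the Dnmt2-/- array were the J protein gene Dnajb3 (141.0 on the Dnmt2-/- array and 101.7 on the wild type array, ratio 0.99), Pdcl, a cofactor of CCT (266.3 and 165.7, 0.72), Bag2, which inhibits the ubiquitin ligase CHIP (147.8 and 109.9, 0.71), the small heat shock protein gene Hspb8 (244.5 and 157.5, 0.67) and Dnajc27 (137.4 and 107.2, 0.61, with -0.35 in another probe). Lower were Dnajb13 (153.2 on the Dnmt2-/- array and 177.6 on the wild type array, ratio -0.80), Clpb, a mitochondrial disaggregase (120.5 and 129.3, -0.66), and Stub1, which encodes CHIP itself (224.6 and 258.7, -0.65). Pdcl3 and Sugt1, an Hsp90 cochaperone, were detected on the wild type array only. In the reported setting the measured ratio was 1.84-fold lower for Pdcl3 and 1.63-fold lower for Sugt1, which are not lower bounds. Neither held over all settings, in which the ratio of Pdcl3 reached -0.26 and that of Sugt1 -0.20, both inside 1.5-fold. None of the 7 higher or 3 lower calls was kept without background correction, with the larger offset or in the authors' processed values.

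Some of these genes are known from muscle, whose markers were higher on the Dnmt2-/- array (summed signal 17918 on the Dnmt2-/- array and 9474 on the wild type array). The following were picked after their values were seen. Unc45b, the myosin chaperone of muscle, had 199.3 on the Dnmt2-/- array and 145.8 on the wild type array, a ratio of 0.44, and Hspb8, with which Bag3 pairs, had a ratio of 0.67. Hspb6, another muscle small heat shock protein, was level at 0.04, Cryab was at -0.36, and Hspb7, Hspb2 and Hspb3 were detected on neither array. The muscle-associated chaperones thus did not share a direction, and the part of muscle RNA in them was not tested. Fkbp4, an Hsp90 cochaperone of steroid receptors, had 1248 on the Dnmt2-/- array and 1638 on the wild type array, a ratio of -0.54. Its ratio stayed between -0.54 and -0.49 over the settings, but no other Fkbp4 probe was detected on both arrays.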

How the data were processed

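Signals came from 2 arrays, 1 of Dnmt2-/- and 1 of wild type marrow, grouped by the genotype labels. Per the labels' protocols, RNA was extracted with Trizol and amplified to biotin-labelled cRNA. The deposited non-normalized table gives a linear signal intensity and a detection p-value per probe, and the deposited p-values are low for probes above background. The authors also deposited normalized intensities on a linear scale, with 1071 probes blank and the method not stated; these served as an alternative.

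GEO's platform annotation gave the gene names: 34885 had 1 symbol, 18 had several and were not used, and 10378 had none. Background was removed by normexp (limma 3.58.1, R 4.3.3), with its level inferred from the detection p-values, an offset of 16, log2 and quantile normalization over all probes. The offset shrinks ratios of dim genes. The brightest probe stands for a gene. For a gene detected on 1 array, a dimmer value under its array's lowest detected normalized value was raised to it. The fold is then a lower bound. Where the dimmer value was not under it, the measured ratio is given, which is not a bound. No test was run. On simulated arrays with 10635 detected genes, the median estimate was 0.79 for a simulated log2 ratio of 1 and -0.84 for one of -1. For 0.585 and -0.585 it was 0.52 and -0.49, with 24.5% and 26.5% of such genes past 1.5-fold. Of genes simulated without a change 0.1% passed 1.5-fold, where 11.8% of all genes on the real arrays did. The simulated ratios were thus less spread, and these shares are not a calibration of the real arrays.

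The members, lists and thresholds were chosen with earlier results of these data known. The text names all members, and of the other chaperone genes those at least 1.5-fold apart, at most 5 in each direction. The muscle-associated chaperones and Fkbp4 are named besides, picked after their values were seen. Of a marker list it names up to 3 genes by size, with the undetected markers and the level Vcam1 and Bglap besides. The split by brightness was chosen after seeing the data. Promoter windows came from RefSeq (GRCm38.p6), and the tables name no genome build. Protein sequences were not used here. Alternatives changed the background correction, the offset, the scaling, the probe rule and the detection limit, or took the authors' values.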

Additional observations from a re-analysis of the deposited data

How the results depend on the processing

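Each comparison rests on 1 array per genotype, so no replicate could be left out. No paired analysis was possible with 1 array per genotype, and no test was made. The count of members at least 1.5-fold higher was 0, and 1 with median scaling. The count lower was 3, and 1 with median scaling and 0 without background correction, with an offset of 50 and in the authors' processed values. The median of the Hsp70 and Hsp110 members was -0.25, against -0.15 in the authors' values, -0.13 with the mean of all probes and -0.068 with no detection filter. Median scaling moved the J protein median to 0.16 and that of the other chaperone genes to 0.090, as it moved that of all genes to 0.14. Of the other chaperone genes, 7 were higher; the count was 0 without background correction, with the larger offset and in the authors' values, and 2 with the mean of all probes. The count lower was 3; it was 0 under those 3 settings and with median scaling, 1 with the mean of all probes, and 5 at a detection limit of 0.05 and with no filter. Of 267 single-member values under the alternatives, 253 moved by less than the SD of 0.29 between probes of a gene, and 14 moved by more. Among the 267 values 19, of 12 members, had the other sign than the value reported. None of these 19 belonged to a member past 1.5-fold. Values of members with 1 probe could not change with the probe rule. The SD is also a wide limit, since 24 of 33 members lay within 0.3 of 0. Over all genes, 6.61% were higher and 5.16% lower, and with median scaling 13.8% and 1.84%. Signals near the background limit Hspa1a, Hspa1b, Hspa13, Hspa14, Hspb1, Dnaja1, Cct2, Cct5 and Cct7. The members with the highest and lowest ratio were dim as well. Dnajb4 had 109.6 on the wild type array, and Hspa4l had 121.0 on the Dnmt2-/- array.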

Other observations

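Of 5 targets of the transcription factor ATF4, 4 were detected on both arrays with a median log2 ratio of 1.76. Trib3, a pseudokinase, had a signal of 997.9 on the Dnmt2-/- array and 193.9 on the wild type array (2.69). Chac1, which degrades glutathione, had 265.5 on the Dnmt2-/- array and 118.4 on the wild type array (1.80). Ddit3, which encodes the factor CHOP, had 1166 on the Dnmt2-/- array and 357.4 on the wild type array (1.73). Asns, asparagine synthetase, had 3322 on the Dnmt2-/- array and 2743 on the wild type array (0.25), which lies within the range of the chaperone members, -0.86 to 0.42. Sesn2 was detected on the Dnmt2-/- array only, with 126.8 there and 97.1 on the wild type array. The difference between these lists was not tested.

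Immediate early genes, which respond within minutes to handling and growth signals, went both ways, with a median of 0.01 over 6 genes. Egr1 had 709.9 on the Dnmt2-/- array and 331.0 on the wild type array (1.05), Fos 201.5 and 123.6 (1.02), and Jund 145.8 and 177.2 (-0.93). Proliferation genes had a median of 0.10 over 8 genes, 4 above 0 and 4 below, with Pcna at 0.51, Cdk1 at 0.42 and Top2a at 0.36. Regulators and partners of HSF1 outside the members had a median of -0.16 over 5 genes, with Hdac6 at -0.34, the nuclear importer of Hsp70 Hikeshi at -0.26 and Hsf2 at -0.16. Hdac6 was near background, with 110.3 on the Dnmt2-/- array and 109.7 on the wild type array. The other probe of Hsf2 gave 0.18, and its ratio reached 0.01 over the settings, so no direction is given for it.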
